A study of Mus musculus with 4 samples.

Results

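The genes described here control entry into the cell division cycle: the D cyclins Ccnd1, Ccnd2 and Ccnd3, their kinase partners Cdk4 and Cdk6, and the CDK inhibitors Cdkn1a, Cdkn1b, Cdkn1c, Cdkn2b and Cdkn2c. They were taken by name, as every probe set (a group of array probes for 1 transcript) whose platform annotation gives one of these symbols. All 10 genes were found, with 26 of the 34945 probe sets on the array that carry a single gene symbol, out of 45037 probe sets in all. A level filter was set at the 40th percentile of the mean level of all probe sets, near an intensity of 24.8. Of the 26 probe sets 21 passed it, and 5 dimmer ones of Ccnd2, Ccnd3, Cdk6 and Cdkn1b did not. The brightest probe set of each of the 10 genes passed, as did those of 13525 of 18193 genes in all.

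D cyclins are made when growth factor and RAS signals reach the nucleus, and they bind and activate CDK4 and CDK6. The active kinases phosphorylate the retinoblastoma protein and its relatives, which releases E2F transcription factors and lets the cell start DNA replication. The INK4 inhibitors, encoded by Cdkn2b and Cdkn2c among others, bind CDK4 and CDK6 directly, while the CIP/KIP inhibitors, encoded by Cdkn1a, Cdkn1b and Cdkn1c, act mainly on CDK2 complexes and can also stabilise cyclin D complexes. In melanoma the cyclin D and CDK4 step is a frequent site of deregulation.

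The tumours were allografts of iNRAS-475, a mouse melanoma line with doxycycline-inducible NRAS, placed in the dermis of nude mice, which lack mature T cells. All hosts drank doxycycline at 2 mg/ml for the 6 weeks in which tumours grew to between 200 and 500 mm3. One tumour sample stayed on doxycycline, and the other 3 were collected 24, 48 and 72 h after the drug was stopped, with 1 array for each of the 4 conditions. The promoter and sequence of the inducible NRAS, the genotype of the line beyond its name, and the age and number of the hosts are not given in the labels used here. A single line was used, so the values describe that line and not NRAS melanoma at large, and with 1 array a condition no difference between conditions has a replicate error.

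The arrays had similar medians, between 33.3 and 34.0 intensity units, but they differed in the genes of cell types other than the tumour cells, most of all at 72 h. Host and tumour are both mouse, so host transcripts add to every value. The summed intensity of 10 fibroblast markers, all past the level filter, was 17894 on doxycycline and 18533, 35736 and 63613 at 24, 48 and 72 h. Most of the 72 h sum came from the collagen genes Col1a1, Col1a2 and Col3a1, at 18005, 16226.5 and 19970. On that array 8 of the 10 markers lay above the control and 2, Pdgfra and Thy1, below it. Which cells made these transcripts was not tested. Macrophage markers, 10 of 11 past the filter, summed to 6046, 10338.5, 8304 and 15228. Skeletal muscle markers, 8 of 10 past the filter, summed to 327, 619, 299 and 4642, and adipocyte markers, 6 of 8, to 581, 335, 694 and 2147. Endothelial markers, 9 of 10 past the filter, summed to 689, 603, 637 and 1077. Pericyte and smooth muscle markers, 7 of 10 past the filter, summed to 3201, 4256, 3133 and 3367. Their sum hides opposite directions at 72 h, where 4 of the 7 lay above the control and 3 below it. Rgs5 read 141 on doxycycline and 555 at 72 h, and Cspg4 read 603 and 133. Keratinocyte markers, 5 of 9 past the filter, summed to 334, 309, 326 and 331. Neutrophil markers, 7 of 9, summed to 628, 527, 920.4 and 524, and lymphoid markers, 4 of 8, to 373, 357, 385 and 349. Melanocytic markers, 7 of 10 past the filter, summed to 4479, 4245, 5799 and 4936, most of it from Sox10, the neural crest and melanocyte transcription factor, at 3771, 3613, 4681 and 3844. The pigment genes Tyr, Tyrp1 and Mlana were below the level filter, so the melanocytic label rests on Sox10, S100b and dimmer genes. No marker was listed at 0, since the lowest intensity in the table was 6.99.

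Differences below are off doxycycline minus on doxycycline of log2(intensity + 32), a scale on which the added 32 makes the differences of dim probe sets smaller than those of the intensities themselves. A gene or probe set is called 2-fold higher or lower where the difference is at least 1 in size. These calls have no p-value, and the animal and the tumour cannot be told apart from the condition.

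Ccnd1, which encodes cyclin D1, was much lower at 48 and 72 h than on doxycycline in all 3 of its probe sets, but not at 24 h. The brightest of them read 9864 on doxycycline and 10149.7, 3222 and 1305 at 24, 48 and 72 h. The second read 5233, 6000.3, 1898 and 643 on the same arrays. The dimmest read 2339, 3335, 797 and 249.3. All 3 were highest at 24 h and lowest at 72 h, so the order of the 4 arrays was the same in each. Relative to the control intensity, the 48 h array stood at 32.7%, 36.3% and 34.1% and the 72 h array at 13.2%, 12.3% and 10.7%, from the brightest to the dimmest probe set. The corresponding log2 differences were -1.60, -1.45 and -1.52 at 48 h and -2.89, -2.96 and -3.08 at 72 h. At 24 h the same probe sets differed by 0.04, 0.20 and 0.51, so the size of the early difference depended on the probe set while the later ones did not. In bulk tumour RNA, fewer cells that make a transcript and less of it per cell cannot be told apart. Marker sums of tumour and host cell types, given above, differed between the arrays. The part of these cells in the Ccnd1, Cdkn2b and Cdk6 values was not tested.

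The step from 24 to 48 h was -1.65, -1.64 and -2.02 in these probe sets, and that from 48 to 72 h was -1.28, -1.52 and -1.56. Both steps leave out the control array. Among all 13525 genes, 29 had a lower difference than Ccnd1 at 48 h and 13 at 72 h, and 8 had a lower one between 72 and 24 h. At 24 h, by contrast, 8112 genes lay below Ccnd1 and 5412 above it.

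**Figure D1:**
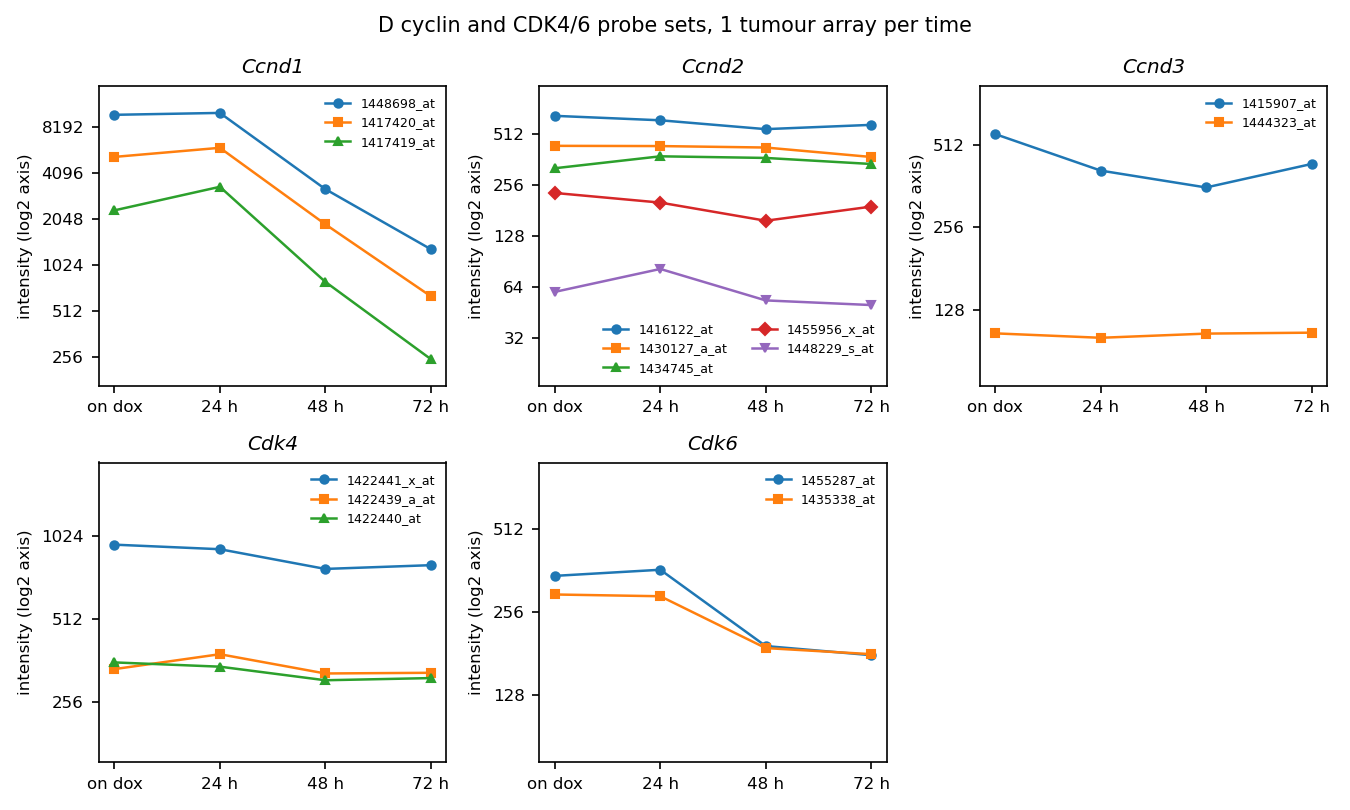
Intensity (log2 axis) of each probe set past the level filter for the D cyclins and their kinases, on doxycycline and 24, 48 and 72 h after withdrawal, 1 array per point and no error bars. The 3 Ccnd1 lines and the 2 Cdk6 lines are lower at 48 and 72 h, as is the brighter of the 2 Ccnd3 lines at every time off the drug, while no line of Ccnd2, Ccnd3 or Cdk4 differs by 2-fold.

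Neither of the other D cyclins reached the 2-fold threshold, and 1 probe set of Ccnd3 was lower than the control at each time. Ccnd2, which encodes cyclin D2, read 651, 613, 543 and 576 on doxycycline and at 24, 48 and 72 h by its brightest probe set. Its next probe sets read 433, 432, 423 and 372, and 320, 376, 368 and 339, in the same order of arrays. The 5 Ccnd2 probe sets past the level filter differed by between -0.23 and 0.08 at 72 h and between -0.47 and 0.18 at 48 h, on both sides of 0. The other 2 Ccnd2 probe sets stayed between 12.8 and 15.5 on every array.

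Ccnd3, which encodes cyclin D3, was lower on all 3 off arrays in its brightest probe set. That probe set read 562 on doxycycline and 413, 358 and 437 at 24, 48 and 72 h, with differences of -0.42, -0.60 and -0.34. The 24 h difference lay below that of 98.3% of all genes, and the lowest value was at 48 h. A second Ccnd3 probe set read 105, 101, 105 and 105, with differences of -0.04, -0.0022 and 0.0066, so the lower level was seen in 1 of the 2 probe sets past the filter. No probe set of Ccnd2 or Ccnd3 was called 2-fold higher at any time, and none was called 2-fold lower.

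The kinase genes differed from each other: Cdk6 was lower at 48 and 72 h by a little under 2-fold, and Cdk4 was close to its control level. Cdk6 read 346, 364, 193 and 178 on doxycycline and at 24, 48 and 72 h in its brightest probe set. A second probe set read 296, 292, 189 and 180.0. Against the control intensity they stood at 55.6% and 63.9% at 48 h and at 51.6% and 60.7% at 72 h. The differences were -0.75 and -0.57 at 48 h and -0.85 and -0.63 at 72 h, short of the 2-fold threshold. Nearly all of the difference lay between 24 and 48 h, a step of -0.82 and -0.55, against -0.09 and -0.06 between 48 and 72 h. Of all genes, 2.02% had a lower difference than Cdk6 at 48 h and 2.26% at 72 h. The third Cdk6 probe set stayed between 16.1 and 19.1 on every array.

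Cdk4 read 950, 915, 776 and 801 on doxycycline and at 24, 48 and 72 h in its brightest probe set, which ends in _x_at, a suffix that marks probes that can bind other transcripts. The others read 336, 381, 324 and 326, and 355, 343, 306 and 312. All 3 differences were small and negative at 48 h (-0.28, -0.05 and -0.20) and at 72 h (-0.24, -0.04 and -0.17). At 24 h they took both signs, at -0.05, 0.16 and -0.05.

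The Cdk4 promoter is printed because its window holds 4 copies of the E box CACGTG, the palindrome to which MYC and other basic helix-loop-helix factors bind, and the windows of only 8 of the 32851 promoters in the table hold as many. The window runs from 250 bases before to 50 bases after the RefSeq gene start, at chr10:127063285-127063584 on the + strand of GRCm38.p6, and the E boxes are in capitals.
Cdk4 promoter: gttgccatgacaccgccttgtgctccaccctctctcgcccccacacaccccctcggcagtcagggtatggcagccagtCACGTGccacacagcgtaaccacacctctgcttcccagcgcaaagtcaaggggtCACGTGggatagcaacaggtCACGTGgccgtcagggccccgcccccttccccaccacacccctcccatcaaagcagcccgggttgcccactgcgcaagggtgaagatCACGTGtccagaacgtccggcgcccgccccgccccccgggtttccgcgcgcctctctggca
The first bases of the 4 copies lie 172, 118, 98 and 11 bases before the start. At least 1 E box is found in 7.15% of all windows. The Cdk6 window holds 1, and a match to these letters does not show that a factor binds there.

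Of the CIP/KIP inhibitors, Cdkn1a was lower on all 3 off arrays, Cdkn1b was higher at 24 h only, and Cdkn1c was higher at 72 h. Cdkn1a encodes p21, a transcriptional target of p53 that is also induced by strong RAS and ERK signals. Its brightest probe set read 997 on doxycycline, 614 at both 24 and 48 h and 587 at 72 h, which is 61.7%, 61.7% and 58.9% of the control. The second probe set read 103, 84.0, 69.2 and 65.9. Both were highest on the control array and lowest at 72 h, with differences of -0.67, -0.67 and -0.73 in the first and -0.22, -0.42 and -0.46 in the second. At 24 h only 44 of 13525 genes had a lower difference than Cdkn1a, against 356 at 48 h and 390 at 72 h. The values at 24 and 48 h in the brightest probe set are exactly equal in the deposited table. Such ties occur in 48.0% of all probe sets, and their origin was not tested.

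The upstream of the 2 Cdkn1a promoter windows is printed because Cdkn1a is a known p53 target and this window holds 2 matches to a p53 half-site. It lies at chr17:29090729-29091028 on the + strand of GRCm38.p6, and the capitals mark matches to the p53 half-site, the 10-base motif of which p53 binds pairs.
Cdkn1a promoter: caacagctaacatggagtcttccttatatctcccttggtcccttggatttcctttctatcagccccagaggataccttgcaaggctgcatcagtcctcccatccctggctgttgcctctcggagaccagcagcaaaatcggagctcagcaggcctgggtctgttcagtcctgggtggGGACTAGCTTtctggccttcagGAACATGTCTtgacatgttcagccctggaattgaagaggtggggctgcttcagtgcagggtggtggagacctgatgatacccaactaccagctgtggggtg
The 2 marked half-sites begin 73 and 51 bases before the RefSeq start of this window and are not adjacent to each other. Directly after the second come the bases tgacatgttc, which miss the motif at their first base only. Only exact matches to the motif were marked, so this near match and any other stay in lower case, and binding was not tested. A window with at least 1 half-site is common, at 8.36% of all windows, and 0.359% hold 2 or more. The other Cdkn1a window holds none, and has 2 copies of the Sp1 box GGGCGG, a motif in 35.7% of all windows.

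Cdkn1b encodes p27, an inhibitor of cyclin E and CDK2 whose protein is controlled largely by degradation. Its probe set past the filter read 99.4 on doxycycline and 156, 95.2 and 84.9 at 24, 48 and 72 h. The 24 h array stood above the other 3, with a difference of 0.51 that 1.94% of genes exceeded. From 24 to 72 h the difference was -0.68. A second, dim probe set was lower at 24 h, with 23.1 on doxycycline and 12.5, 14.1 and 14.1 on the off arrays, at levels below the filter.

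Cdkn1c encodes p57, an imprinted inhibitor with roles in differentiating tissues. Its only probe set read 23.7 on doxycycline and 22.7, 33.2 and 85.5 at 24, 48 and 72 h. Its 72 h value was 361% of the control intensity, and on the log2 scale with the added 32 the differences were -0.03, 0.23 and 1.08. The level filter was passed through the later arrays, since the first 2 values lie below it. With a larger pseudocount the 72 h difference was 0.49 and no longer 2-fold, and a filter at the 60th percentile removed the gene. The markers of fibroblasts, macrophages, skeletal muscle, adipocytes and endothelial cells had their highest summed intensity on the same 72 h array, and their part in the Cdkn1c value was not tested.

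**Figure D2:**
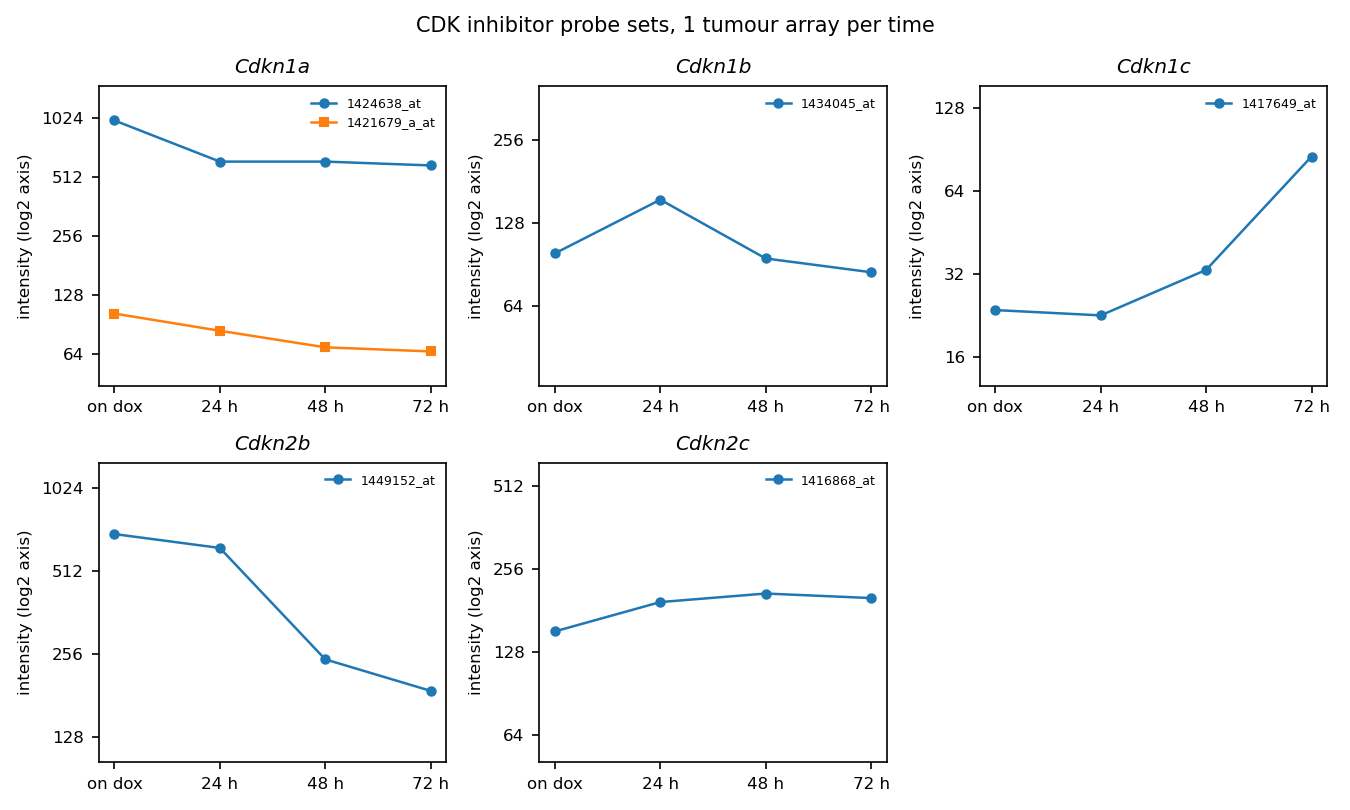
Intensity (log2 axis) of each probe set past the level filter for the CDK inhibitors, on doxycycline and 24, 48 and 72 h after withdrawal, 1 array per point and no error bars. Cdkn2b is lower at 48 and 72 h, Cdkn1a is lower at every time off the drug, Cdkn1b is highest at 24 h and Cdkn1c is highest at 72 h.

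Of the INK4 inhibitors described here, Cdkn2b was lower at 48 and 72 h and Cdkn2c was above the control on all 3 off arrays. Cdkn2b encodes p15, an inhibitor of CDK4 and CDK6 known as a target of TGF-beta. Its 1 probe set read 699 on doxycycline and 622, 245 and 189 at 24, 48 and 72 h. The 48 and 72 h values were 35.1% and 27.0% of the control, and the 24 h value was 89.0%. The differences were -0.16, -1.40 and -1.73, so that Cdkn2b was called 2-fold lower at 48 and 72 h. Only 42 genes had a lower difference at 48 h and 54 at 72 h. Most of it lay between 24 and 48 h, a step of -1.24, against -0.33 between 48 and 72 h. With a single probe set, no second measurement of Cdkn2b is at hand.

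The Cdkn2b promoter is printed because this gene and Ccnd1 are the 2 called 2-fold lower. It lies at chr4:89310983-89311282 on the - strand of GRCm38.p6, and the capitals mark a full cyclic AMP response element, TGACGTCA, to which CREB, ATF and some AP-1 dimers bind.
Cdkn2b promoter: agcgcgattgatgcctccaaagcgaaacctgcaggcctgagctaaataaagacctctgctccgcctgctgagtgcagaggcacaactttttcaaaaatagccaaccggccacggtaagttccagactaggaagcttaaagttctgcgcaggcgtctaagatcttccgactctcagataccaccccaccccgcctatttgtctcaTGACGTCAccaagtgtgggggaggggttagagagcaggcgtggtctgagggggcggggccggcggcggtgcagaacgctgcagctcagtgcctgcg
The element begins 46 bases before the RefSeq start, and 1.79% of all windows hold one on either strand. Of the other motifs searched, the window holds 1 Sp1 box and none of AP-1 (TGANTCA), E2F (TTTNGCGC), FOXO (TGTTTAC), the E box or the p53 half-site, which says only that these letters are not in this stretch. The tables used here hold windows of 7 of the 10 genes, and those of Ccnd1, Ccnd2 and Cdkn1c were not analysed here.

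Cdkn2c encodes p18, another INK4 inhibitor. Its 1 probe set read 152 on doxycycline and 194, 208 and 200.2 at 24, 48 and 72 h. All 3 off arrays were above the control, by 0.30, 0.39 and 0.34, and differed among themselves by at most 0.09. At 24 h 8.35% of genes had a higher difference than Cdkn2c. Cdkn2d, the INK4 gene for p19 and no member of the group of 10, differed by -0.13, -0.21 and -0.13.

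Counted together by their brightest probe sets, 2 of the 10 genes were 2-fold lower at 48 h (Ccnd1 and Cdkn2b), and 2 lower and 1 higher (Cdkn1c, whose call depended on the pseudocount) at 72 h. None was called in either direction at 24 h. Over all 13525 genes, 1.04% were 2-fold lower and 0.739% higher at 48 h, and 1.6% lower and 2.26% higher at 72 h. At 24 h the shares were 0.0665% lower and 0.266% higher. Between 72 and 24 h, without the control array, the same 2 genes were lower and Cdkn1c was higher, where 1.83% of all genes were lower and 1.94% higher. The median difference of the 10 genes was -0.04, -0.44 and -0.29 at 24, 48 and 72 h, and that of all genes was 0 at each time. Of the 10 genes, 6 lay below the control at 24 h and 8 at both later times. Among all 13525 genes the number below the control was 5815, 6147 and 5904 at 24, 48 and 72 h and the number above it 6625, 6125 and 6333, the others being equal to it. Counted over all 26 probe sets with no level filter, 4 were 2-fold lower at 48 h and the same number at 72 h, the 3 of Ccnd1 and that of Cdkn2b each time, against 0.535% and 0.921% of all probe sets with a single symbol. Since the differences at 24, 48 and 72 h share 1 control array, they are not independent of each other.

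**Figure D3:**
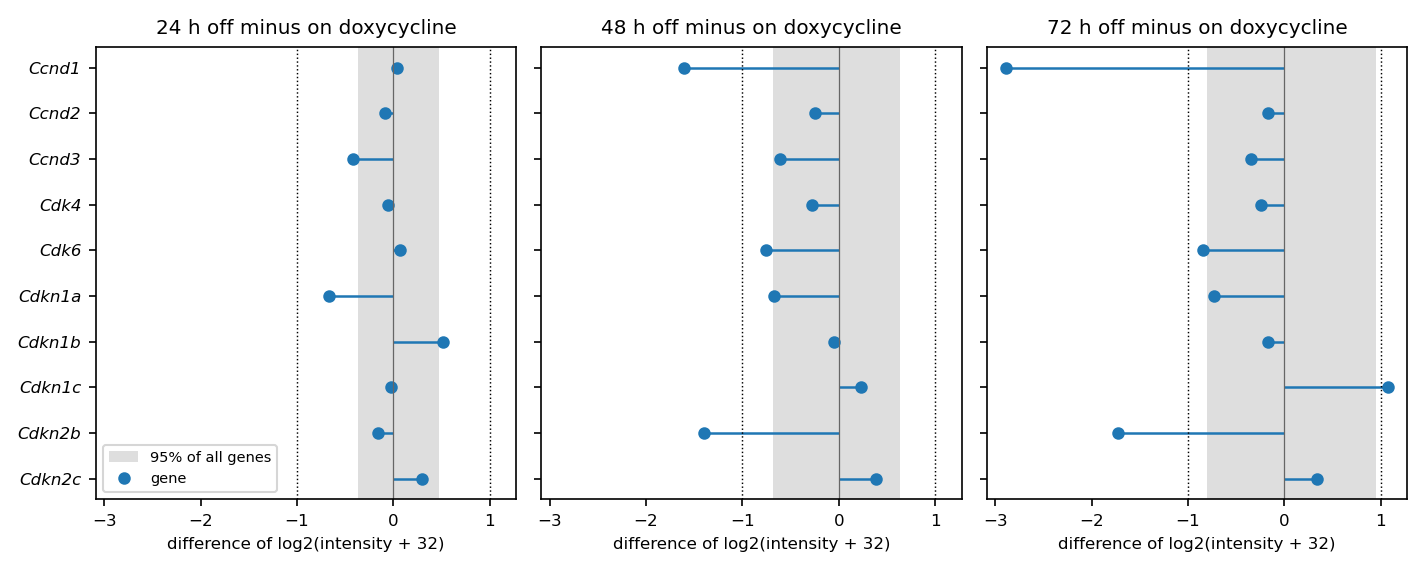
Difference of log2(intensity + 32) between each off array and the control for the 10 genes, by their brightest probe sets, with the range that holds 95% of all 13525 genes in grey and the 2-fold thresholds as dotted lines. Ccnd1 and Cdkn2b lie far below the grey range at 48 and 72 h, Cdkn1a and Ccnd3 lie below it at 24 h, and Cdkn1c lies above it at 72 h.

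The grey range widened with time, from between -0.37 and 0.47 at 24 h to between -0.68 and 0.64 at 48 h and between -0.80 and 0.95 at 72 h. Cdkn1a at -0.67 and Ccnd3 at -0.42 were thus outside it at 24 h, and the later differences of Cdkn1a (-0.67 and -0.73) and Ccnd3 (-0.60 and -0.34) were inside it. Cdkn1b, at 0.51, was above it at 24 h, but its difference was 0.10 with the mean over its probe sets, and that of Ccnd3 was then -0.17. Cdk6 was just below the lower end of the range at both 48 and 72 h by its brightest probe set. Its second probe set, at -0.57 and -0.63, was inside the range, as was the mean over its probe sets, at -0.45 and -0.52.

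A straight line over hours, with the control at 0 h, was fitted to all 4 arrays for every gene with limma. It called 0 of 13525 genes (0%) at a Benjamini-Hochberg adjusted p under 0.05, and so none of the 10 genes. At an unadjusted p under 0.05 there were 2102 genes, and the lowest adjusted p of any gene was 0.241. Without the intensity trend in the variance the fit also called 0, with 2157 genes at an unadjusted p under 0.05. Of the 10 genes, 4 had an unadjusted p under 0.05 in the limma fit, and 1 had one when the control, the 48 h or the 72 h array was left out. The slope of Cdkn2b was -0.64 ± 0.12 per 24 h (SE, limma adjusted p = 0.244), and that of Ccnd1 was -1.03 ± 0.20 (limma adjusted p = 0.250). Cdk6 had a slope of -0.34 ± 0.09 (limma adjusted p = 0.289). The fourth gene under 0.05 in the fit to all 4 arrays was Cdkn1c. No slope is given for it because its later, higher arrays carried it past the level filter. The fit to all 4 arrays has 2 residual degrees of freedom and counts any departure from a line as error. For Ccnd1 this includes its nearly equal values on doxycycline and at 24 h.

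The genes whose 3 differences lay nearest to those of Ccnd1, by Euclidean distance in log2 units, were Ier3, Klk8, Asns, Hbegf and Phlda1, at distances of 0.40, 0.50, 0.51, 0.51 and 0.57. Ier3, an immediate early response gene, read 1732 on doxycycline and 1371, 611 and 201 at 24, 48 and 72 h. Asns, the asparagine synthetase, was the only one of the 5 that shared with Ccnd1 a higher value at 24 h, with 993 on doxycycline and 1228, 314 and 156 later. Klk8, a secreted serine protease, read 1389, 1348, 446 and 238 on the same arrays. Hbegf, a ligand of the EGF receptor, read 1696, 1467, 487 and 282, and Phlda1 read 825, 698, 241 and 132. By these probe sets only Ier3 was as low as Ccnd1 at 72 h (-2.92 and -2.89), the other 4 lying between -2.46 and -2.39. Another Asns probe set stood at -2.86 at 72 h, and another of Hbegf at -2.20.

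Nearest to Cdkn2b were Dagla, a diacylglycerol lipase, Msmo1, an enzyme of cholesterol synthesis, and Slc7a5, a transporter of large neutral amino acids, at distances of 0.09, 0.17 and 0.21. Dagla read 367 on doxycycline and 307, 124 and 89.8 at 24, 48 and 72 h, and Slc7a5 read 435, 412, 155 and 127. Nearest to Cdkn1c were Slc43a2, an amino acid transporter, Fosl2, an AP-1 subunit, and Igdcc4, with differences of 1.09, 1.13 and 1.08 at 72 h. For these 3, another probe set of the same gene stood at 0.0017, 0.02 and -0.18 at 72 h, so the likeness holds for 1 probe set of each. Likeness here is over 4 arrays that share a control.

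**Figure D4:**
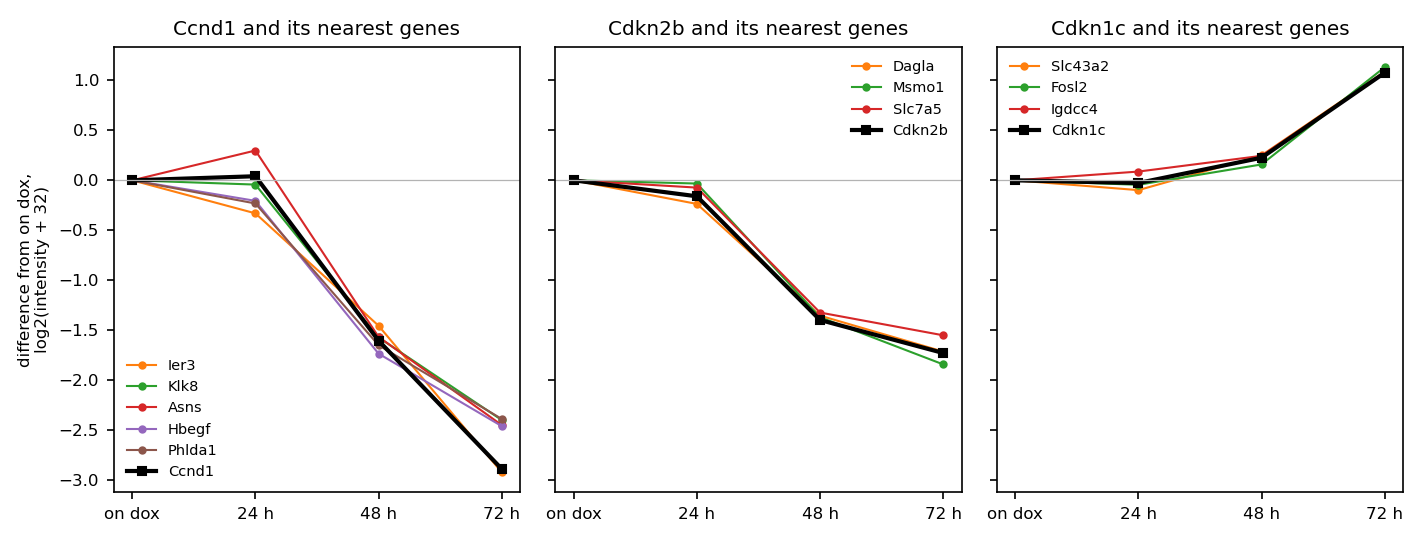
Difference from the control array in log2(intensity + 32), over the 4 arrays in order of time, for Ccnd1, Cdkn2b and Cdkn1c (black) and the genes nearest to each by Euclidean distance (colours), with no error bars. The genes beside Ccnd1 and Cdkn2b lie between -0.33 and 0.30 at 24 h and are lower at 48 and 72 h. Those beside Cdkn1c lie furthest from the control at 72 h.

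The retinoblastoma family, E2F and CDK2 genes, listed with regulators of CDKs, differed little. Of 24 such genes with a probe set, 22 passed the level filter, and none was called 2-fold different at any time. Their median difference was 0.05, -0.01 and -0.04 at 24, 48 and 72 h. Rb1, the retinoblastoma gene, read 36.8 on doxycycline and 50.7, 49.1 and 59.97 at 24, 48 and 72 h. Cks1b, a subunit needed for p27 degradation, read 362, 506, 217 and 241, although another of its probe sets differed by -0.02 at 24 h. E2f5, a repressive E2F, read 864, 611, 699 and 697, while 2 further probe sets stood above the control at 24 h, by 0.09 and 0.25. Mnat1, a subunit of the CDK-activating kinase, read 122, 100.1, 93.0 and 85.2.

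Replication genes, many of them E2F targets, stood highest on the 24 h array. Of 21 with a probe set 19 passed the filter, and all 19 of these lay above the control at 24 h, with a median of 0.61, and 2 were called 2-fold higher. Those were Mcm6, a helicase subunit, which read 115 on doxycycline and 293, 142 and 138 at 24, 48 and 72 h, and Rrm2, a ribonucleotide reductase subunit, which read 64.3, 244, 57.7 and 65.5. The other Rrm2 probe sets differed by 0.84 and 1.19 at 24 h. Mcm3 and Tk1 (thymidine kinase) were higher at 24 h by 0.79 and 0.64. At 48 and 72 h the medians of the 19 replication genes were 0 and -0.07 and none was called. Any relation of these genes to Ccnd1 was not tested. Between 72 and 24 h 3 of the 19 were 2-fold lower (Rrm2 by -1.50 and the replication licensing genes Mcm2 and Cdt1 by -1.21 and -1.07), and all 19 lay below 0. Of the 17 G2/M genes past the filter, of 18 with a probe set, none was called at any time, with medians of 0.19, 0 and 0. Mki67, the proliferation marker, read 135 on doxycycline and 235, 159 and 159 at 24, 48 and 72 h. Ube2c, which acts in mitotic exit, read 104, 95.2, 62.5 and 57.8 on the same arrays, Plk1, a mitotic kinase, 72.5, 59.1, 49.1 and 60.9, and Ccnb2, cyclin B2, 60.9, 80.6, 97.46 and 78.2.

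Of the pathways known to control the inhibitors, the p53 targets other than Cdkn1a showed no common direction. Of 19 with a probe set 16 passed the filter, with medians of -0.06, 0.05 and 0.06 at 24, 48 and 72 h. At 72 h 2 were 2-fold higher (Trp53inp1 and Sesn1) and 1 lower (Phlda3). Phlda3, an inhibitor of AKT, read 1926 on doxycycline and 1584, 883 and 725 at 24, 48 and 72 h. Trp53inp1, which aids p53 activity, was higher off doxycycline, with 46.0, 75.7, 147 and 282, although another of its probe sets differed by 0.03 at 72 h. Aen, a nuclease, lay below the control at each time, like Cdkn1a, by -0.42, -0.53 and -0.42. Plk2, a kinase, differed by 0.13, -0.86 and -0.74, and another of its probe sets by -0.06 at 72 h.

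TGF-beta and SMAD targets, a group to which Cdkn2b belongs, were mostly below the control. All 12 with a probe set passed the filter, and 9, 10 and 10 of them lay below the control at 24, 48 and 72 h, with medians of -0.14, -0.22 and -0.52. At 72 h 3 were 2-fold lower. Id1, an inhibitor of basic helix-loop-helix factors, read 805 on doxycycline and 717, 185 and 167 at 24, 48 and 72 h. Smad7, the feedback inhibitor of the pathway, read 422, 378, 212 and 147. Ccn2, a matricellular protein, was called lower at 72 h alone, with 2509, 1845, 2576 and 994. Pmepa1, another feedback gene, read 2348, 2259.6, 1470.1 and 1511.

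FOXO targets, a group to which Cdkn1b belongs, were mostly above the control. Of 13 with a probe set 11 passed the filter, and 9 of the 11 lay above the control at each time, with medians of 0.12, 0.30 and 0.36. At 48 h 2 were 2-fold higher (Pik3ip1 and Sesn3), as were 2 at 72 h (Pik3ip1 and Txnip). Pik3ip1, an inhibitor of PI3K, read 103 on doxycycline and 157, 337 and 302 at 24, 48 and 72 h, and another of its probe sets was 2-fold higher at 48 h only. Sesn3, a sestrin, read 126, 156, 318 and 268, and another of its probe sets differed by 1.89 at 72 h. Txnip, which limits glucose uptake, read 376, 405, 716 and 1698, and Fbxo32, a ubiquitin ligase subunit, differed by -0.09, 0.75 and 0.89. At 24 h another Txnip probe set stood at -0.21, and 2 others of Fbxo32 at 0.23 and 0.25. Of all 13525 genes, 6625, 6125 and 6333 lay above the control at 24, 48 and 72 h, and 5815, 6147 and 5904 below it. The shares of all genes that were 2-fold higher were 0.266%, 0.739% and 2.26%, and 2-fold lower 0.0665%, 1.04% and 1.6%. None of these lists was tested as a set, and nothing particular to them is drawn from the counts.

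**Figure D5:**
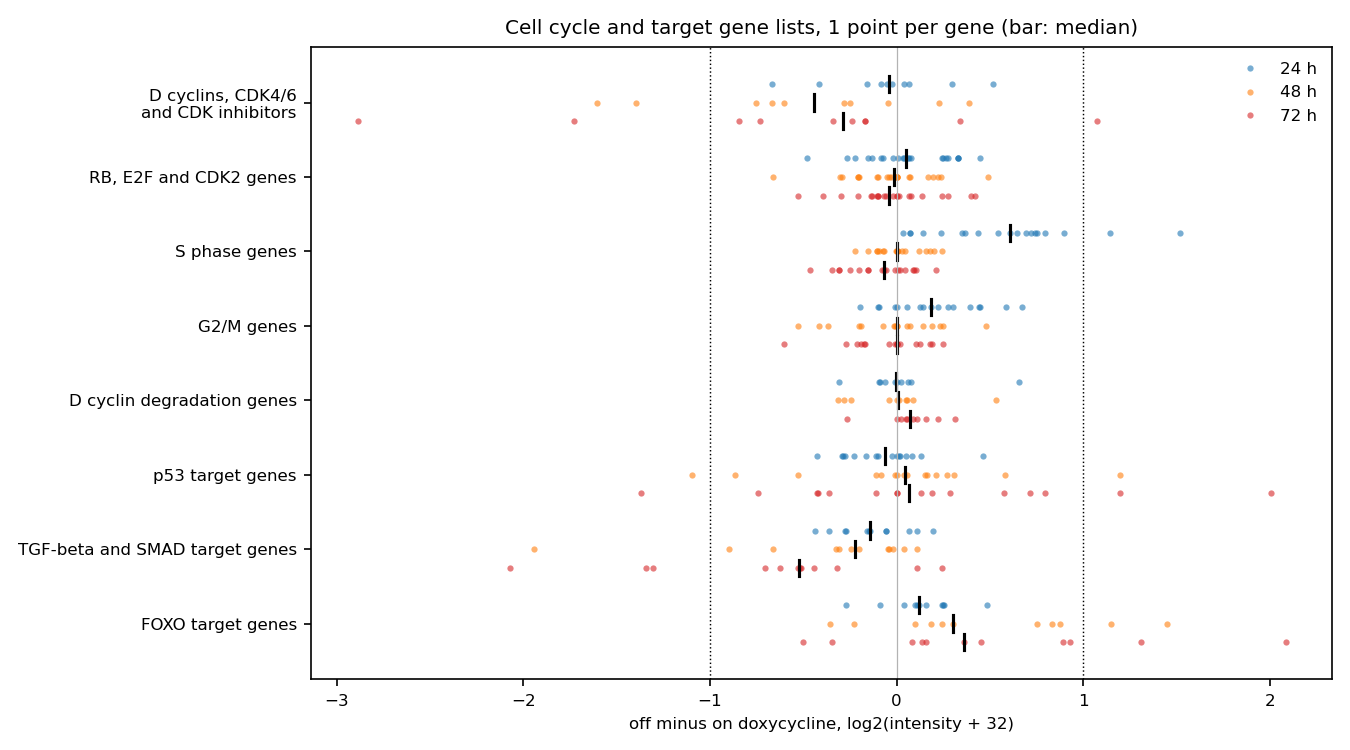
Difference of log2(intensity + 32) between each off array and the control for the 10 genes (top row) and for the genes past the level filter in 7 lists, 1 point per gene, coloured by time, with the median as a bar and the 2-fold thresholds as dotted lines. The replication genes lie to the right at 24 h, and the TGF-beta and SMAD targets lie mostly to the left at 72 h.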

How the data were processed

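The values are the authors' deposited intensities, linear in scale, with 1 value for each probe set on each Affymetrix mouse array. Per the submitters' processing notes MAS5 and RMA were used, with no version or role, and the scaling between arrays is not stated there. Per the labels' protocols a frozen tumour piece of about 50 mg was extracted with Trizol, and 10 ug of its total RNA gave the biotin-labelled cRNA.

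Symbols came from the platform annotation, and the 10092 probe sets with none or several were left out. Log2 of the intensity plus 32 was taken, with no further normalization. Each gene was given by its probe set with the highest mean, and genes under the 40th percentile of the probe sets' mean level were left out. With 1 array a condition, comparisons are differences without a p-value. limma 3.58.1 (R 4.3.3; lmFit, eBayes with trend, Benjamini-Hochberg adjustment) fitted a line over hours. The fit was also run on simulated straight lines with equal, independent noise. That setting has no differences between animals or in host cells, so it does not show how the fit performs on these tumours. The rest was done with pandas 2.3.3 and NumPy 2.4.6 under Python 3.11.15. Precision is limited by the number of arrays, which is 4. Promoter sequences are RefSeq's, on GRCm38.p6; 32851 windows were searched on both strands.

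Other genes were named by rule: the 5 nearest to Ccnd1, the 3 nearest to each other called gene, and of each of 7 pathway lists the 4 with the greatest mean difference. Mcm2, Cdt1, Sesn1 and Cdkn2d were named after their values were seen. The 10 genes and all lists were chosen with earlier results of these data known. Alternatives were quantile normalization, median centring, other pseudocounts and filters, other uses of the probe sets and, for the line, each array left out and eBayes without trend.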

Additional observations from a re-analysis of the deposited data

How the results depend on the processing

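No called difference of Ccnd1, Cdkn2b or Cdkn1c changed sign under quantile normalization, median centring, a smaller (8) or larger pseudocount, the mean over probe sets, a level filter at the 60th percentile or none, or without _x_at and _s_at probe sets. Ccnd1 stayed between -1.62 and -1.52 at 48 h and between -2.98 and -2.80 at 72 h, and Cdkn2b between -1.48 and -1.15 and between -1.85 and -1.39. The Cdkn1c call was lost with the larger pseudocount, at 0.49 at 72 h and 0.50 between 72 and 24 h, against 1.56 and 1.61 with the smaller one, and the 60th percentile filter removed the gene. Without the control, 48 h or 72 h array 1 of the 10 genes, in place of 4, had an unadjusted p under 0.05 for the line over hours, and 3 had one with eBayes without trend. Over all 13525 genes the numbers were 1705, 1446 and 1046 without these arrays, in place of 2102, and 2157 with eBayes without trend. The Cdkn1b difference at 24 h, 0.51, was 0.10 with the mean over probe sets, 0.32 with the larger pseudocount and 0.45 after quantile normalization. The Cdk4 difference at 24 h was 0.16 without _x_at and _s_at probe sets, and with the mean over probe sets Ccnd3 was at -0.17, -0.19 and -0.11 and Cdk6 at -0.45 and -0.52 at 48 and 72 h. Of 316 values of the 10 genes under these settings 293 moved by less than 0.2, but many of them could not move. A level filter leaves the difference of a gene that passes it as it is. The mean over probe sets changes nothing for Cdkn1c, Cdkn2b and Cdkn2c, which have 1 probe set each. Leaving out _x_at and _s_at probe sets changed the brightest probe set of Cdk4 alone. Counts over all genes, 45, 240, 522 and 509 at 24, 48, 72 h and between 72 and 24 h, were 13, 96, 280 and 263 with the larger pseudocount. They were 29, 135 and 332 at 24, 48 and 72 h with the mean over probe sets, and 70 at 24 h with a pseudocount of 8. The line over hours called 0 genes under every setting and without each array. No paired analysis was possible because each condition has 1 array. With no replicates, the size of the spread between tumours is unknown.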

Other observations

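Genes that act in the destruction of D cyclin proteins were close to the control. All 10 with a probe set passed the level filter, none was called 2-fold different at any time, and their medians were -0.0054, 0.0080 and 0.07 at 24, 48 and 72 h. Gsk3b, a kinase that phosphorylates cyclin D1 for export and degradation, read 208 on doxycycline and 346, 315 and 236 at 24, 48 and 72 h, although its 5 other probe sets lay between -0.08 and 0.32 at 24 h. Cryab, a small heat shock protein that joins a cyclin D1 ubiquitin ligase, read 815, 651, 665 and 1020.5, with its other probe sets on both sides of 0 at 24 and 48 h. Ddb1 and Cul4b, parts of cullin ligases, differed by -0.27 and 0.22 at 72 h, and another Cul4b probe set by -0.11.

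Matches were also counted in the promoter windows that are not printed. The Cdkn2c windows held 4 Sp1 boxes in one and 1 E box in the other, and Cdkn1b held 1 Sp1 box. Both Ccnd3 windows held 2 Sp1 boxes, and one of them also held 1 match to the FOXO letters, which occur in 3.65% of all windows. AP-1 letters, in 7.81% of all windows, and E2F letters, in 1.38%, were in none of the 10 windows of these genes.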
